A study of Mus musculus with 8 samples.

Results

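Kinesins are motor proteins that walk along microtubules, or take them apart at their ends, using the energy of ATP. One set of them builds and moves the spindle, aligns chromosomes and completes the division of the cell, and the genes of that set are mostly transcribed in cells that are about to divide. Another set carries vesicles, organelles and protein complexes along microtubules in cells that need not be dividing, and several of its members are best known from the axons of neurons. The genes described here were all rows of the count table whose Entrez identifier maps to a mouse symbol made of Kif and a number with or without a letter. These were 37 of the 27179 genes in the table, and Kif28, the remaining gene of the 38 with such a symbol in the annotation, was not analysed here. By known role, 13 were placed with the mitotic kinesins, 15 with the transport kinesins and 9 in a class of other roles, most of them in cilia or signalling. The rule and the roles use no measured value, but they were chosen with earlier results of these data known.

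The 37 genes were compared between 4 4T1.13-VC and 4 4T1.13-miR-21-KD tumours, taken whole from the mammary gland of BALB/c mice, by RNA sequencing. The 4T1.13 cells are a murine mammary carcinoma line. Both lines carry the lentiviral miArrest vector with an mCherry reporter and hygromycin resistance; in miR-21-KD its H1 promoter drives a transcript that captures mature miR-21, and in VC it drives a scrambled sequence. Each line was a pool of 6 clones, so the clones of a line and its vector cannot be told apart. Mice of the study were female and 7 to 8 weeks old, with their own immune cells and stroma, which carry no vector. By the labels, 100000 cells were injected and the tumours were taken at day 14, as regression of the miR-21-KD tumours began, whereas the text of the study names an earlier day.

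The counts of a tumour summed to between 12134849 and 13592695. CPM below are counts scaled to the library size after TMM scaling, and a count of 0 allows up to 3 counts, or 0.221 to 0.245 CPM, which covers counting error only. The row of Mir21a held 0 counts in all 8 tumours, and a sequestering RNA need not change it, so the labels of the groups could not be checked on the targeted gene. Of the 14382 genes tested with edgeR, 19.5% were lower in miR-21-KD at an adjusted p under 0.05 and 19.6% were higher, and their median log2 fold change was -0.01. For the mitotic genes VC replicate 4 and miR-21-KD replicate 2 stood nearer to the opposite group than the other tumours of their own group, and values without each of them are given with the counts they touch.

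The sequestering RNA is directed at miR-21a-5p, whose mature sequence is shown with its seed, bases 2 to 8, in capitals, because the letters complementary to the seed were searched for in the kinesin transcripts (RefSeq, GRCm38.p6, chr11:86584120-86584141, minus strand).
mmu-miR-21a-5p: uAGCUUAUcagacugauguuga
A site was counted where the longest annotated 3′ UTR of a gene held ATAAGCT or TAAGCTA. Of the 33 kinesin genes that were tested, 3 held such a site (9.09%), against 12.3% of the 13347 tested genes with an annotated 3′ UTR. Kif14 held 2, and Kif2a and Kif13a held 1 each, and the letters of the full 8-base site ATAAGCTA were found in none of the 33. These shares are near each other. The longest 3′ UTRs had a median of 2993 bases over the 15 transport genes and 555 bases over the 13 mitotic genes.

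The mitotic kinesins were lower in miR-21-KD tumours as a class. Of the 13 genes, 12 were tested and 11 fell (91.7%, against 19.5% of all tested genes), from Kif18b and Kif14 at log2 fold changes of -1.43 and -1.40 to Kif2a at -0.40. With the replicate number as a block 11 fell as well, against 22.1% of all tested genes. None rose by edgeR, DESeq2 or limma-voom, nor at an unadjusted p under 0.05, and all 12 fold changes were negative, with a median of -1.13 where that of all tested genes was -0.01. In 9 of the 12 (75%) every miR-21-KD tumour lay below every VC tumour, as did 18.9% of all tested genes. The count was 11 without VC replicate 4 and 12 without miR-21-KD replicate 2, where 18.4% and 24.3% of all tested genes fell. It was 7 without VC replicate 2, VC replicate 3 or miR-21-KD replicate 3 and 6 without miR-21-KD replicate 4. In those settings 10.8%, 10.2%, 12.2% and 11.1% of all tested genes fell. In whole tumours, fewer dividing cells and less of these transcripts per cell cannot be told apart.

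**Figure D1:**
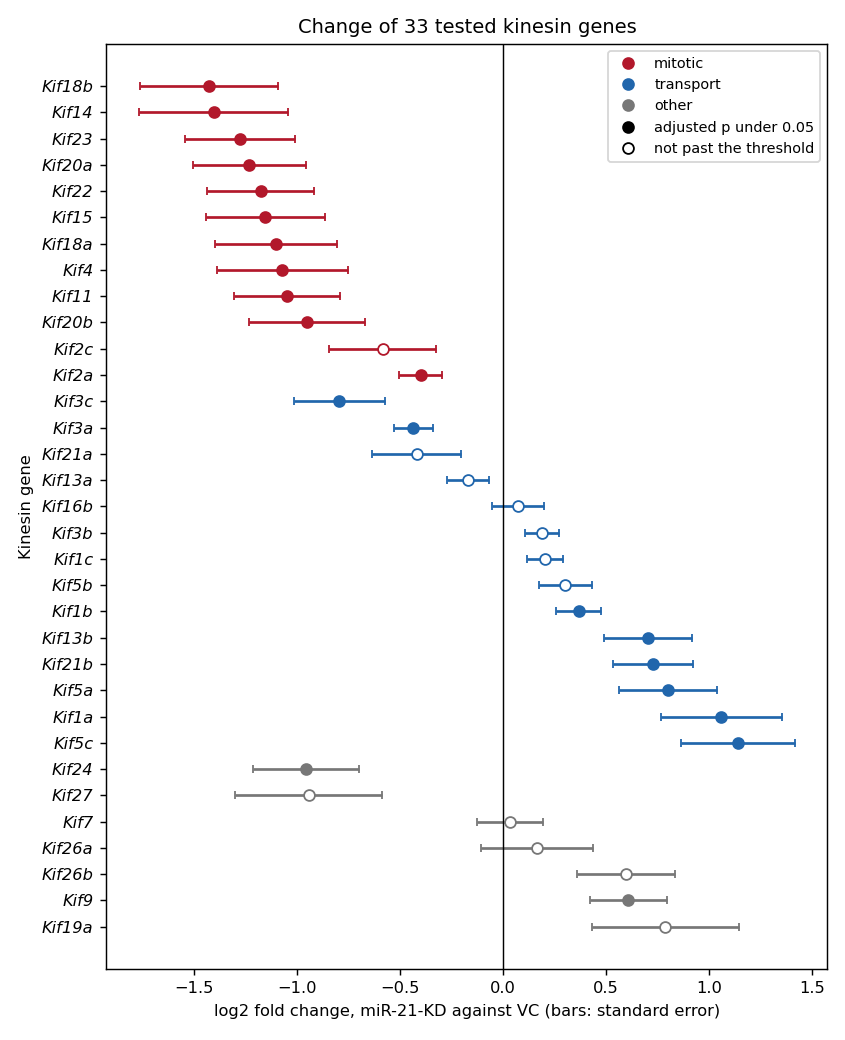
Log2 fold change of the 33 tested kinesin genes in miR-21-KD against VC tumours (horizontal axis, bars are standard errors, n = 4 tumours per group), with filled points for genes past an adjusted p of 0.05. The 12 mitotic genes (red) all lie left of 0, from -1.43 to -0.40, while the 14 transport genes (blue) run from -0.79 to 1.14 and the 7 other genes (grey) from -0.96 to 0.79.

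Among the motors that set up the spindle, Kif11 slides antiparallel microtubules apart to separate the poles, and Kif15 helps to hold the poles apart once they have separated. Kif11 was at 90.9, 90.9, 89.8 and 68.2 CPM in VC replicates 1 to 4 and at 29.3, 67.3, 33.8 and 34.0 CPM in miR-21-KD replicates 1 to 4. Its groups did not overlap, but the highest miR-21-KD tumour lay just below the lowest VC tumour. The log2 fold change of Kif11 was -1.05 ± 0.26 (SE, edgeR adjusted p = 0.0159). Kif15 was at 55.1, 55.4, 57.3 and 42.2 CPM in VC and at 16.2, 40.4, 21.2 and 16.8 CPM in miR-21-KD (log2 fold change -1.15 ± 0.29, adjusted p = 0.0167). As for Kif11, VC replicate 4 was the lowest control and miR-21-KD replicate 2 lay well above the other 3 miR-21-KD tumours.

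Kif22 and Kif4 are motors of the chromosomes. Kif22, a chromokinesin that pushes chromosome arms away from the poles, was at 71.2, 83.0, 81.0 and 64.6 CPM in VC and at 22.3, 54.6, 28.6 and 27.2 CPM in miR-21-KD (log2 fold change -1.18 ± 0.26, edgeR adjusted p = 0.0122), with no overlap. Kif4, a chromokinesin that also limits the length of the central spindle, was at 53.7, 51.4, 50.8 and 34.5 CPM in VC and at 16.0, 40.7, 18.0 and 16.0 CPM in miR-21-KD (-1.07 ± 0.32, adjusted p = 0.0297). For Kif4 the groups overlapped, since miR-21-KD replicate 2 lay above VC replicate 4, and its call was lost when any tumour other than those 2 was left out (adjusted p up to 0.0793).

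Kif18a dampens the movements of chromosomes on the spindle and Kif18b regulates the microtubules that reach from the poles to the cell cortex. Kif18b was at 48.1, 62.8, 59.0 and 40.1 CPM in VC and at 12.5, 35.7, 16.7 and 13.2 CPM in miR-21-KD, which at -1.43 ± 0.34 (edgeR adjusted p = 0.0143) was the most negative fold change of the 33 genes. Kif18a was at 21.8, 21.8, 23.6 and 17.3 CPM in VC and at 5.98, 16.7, 9.01 and 7.67 CPM in miR-21-KD (-1.10 ± 0.30, adjusted p = 0.0209). Neither gene had overlapping groups, though the 16.7 CPM of Kif18a in miR-21-KD replicate 2 was close to the lowest control. The call of Kif18a was lost without VC replicate 2 or 3 or miR-21-KD replicate 3 or 4 (adjusted p up to 0.0607).

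The cytokinesis motors act on the central spindle and midbody, where the daughter cells part. Kif23, the motor subunit of centralspindlin, was at 72.3, 76.6, 71.3 and 49.2 CPM in VC and at 19.2, 44.4, 25.8 and 21.7 CPM in miR-21-KD (log2 fold change -1.28 ± 0.27), and its edgeR adjusted p of 0.0104 was the smallest of all kinesins. Kif20a, which brings the chromosomal passenger complex to the central spindle, was at 83.6, 95.7, 96.5 and 63.6 CPM in VC and at 24.1, 58.3, 34.7 and 27.6 CPM in miR-21-KD (-1.23 ± 0.27, adjusted p = 0.0123). Both genes fell without overlap, and both calls held whichever tumour was left out.

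Kif14, which binds Prc1 and citron kinase at the midbody, was at 37.7, 41.9, 37.4 and 26.1 CPM in VC and at 7.44, 25.5, 11.2 and 9.94 CPM in miR-21-KD (log2 fold change -1.40 ± 0.36, edgeR adjusted p = 0.0185). Kif20b, which acts late in cytokinesis, was at 39.1, 35.0, 35.5 and 25.9 CPM in VC and at 12.9, 29.6, 14.1 and 13.5 CPM in miR-21-KD (-0.95 ± 0.28, adjusted p = 0.0291). For Kif14 miR-21-KD replicate 2 lay just below VC replicate 4 and the groups did not overlap, while for Kif20b it lay above. The call of Kif14 was lost without miR-21-KD replicate 3 or 4 (adjusted p up to 0.0552), and that of Kif20b without any tumour other than VC replicate 4 and miR-21-KD replicate 2 (up to 0.0795).

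The smallest fold changes of the class were those of Kif2a and Kif2c, which take microtubules apart at their ends. Kif2a, which trims microtubules at spindle poles and is also known from neurons, was at 78.2, 81.6, 77.4 and 71.3 CPM in VC and at 53.8, 69.3, 59.3 and 51.8 CPM in miR-21-KD, a log2 fold change of -0.40 ± 0.10 (edgeR adjusted p = 0.0191). Kif2c, which corrects wrong attachments at centromeres, was at 53.3, 54.5, 54.6 and 36.0 CPM in VC and at 21.3, 51.2, 31.9 and 28.1 CPM in miR-21-KD. Kif2a had groups that did not overlap and a narrow spread, whereas Kif2c had miR-21-KD replicate 2 among the controls. The call of Kif2a was lost without VC replicate 2 or 3 or miR-21-KD replicate 4 (adjusted p up to 0.0561). Kif2c was the one tested mitotic gene short of the threshold (log2 fold change -0.58 ± 0.26, adjusted p = 0.103), and without miR-21-KD replicate 2 it passed (-0.88, adjusted p = 0.00897). Kif2b, a relative of both, had 0 counts in all 8 tumours.

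**Figure D2:**
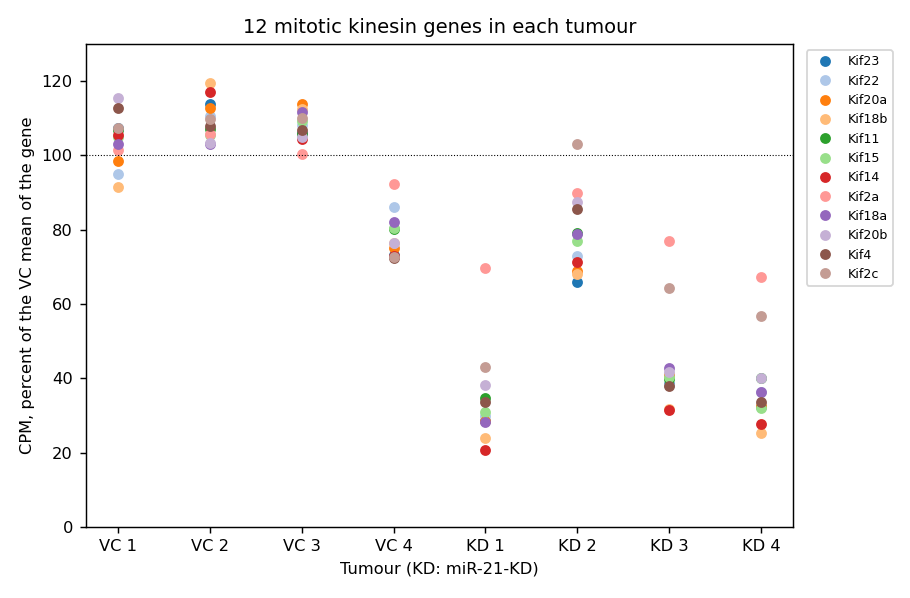
CPM of each of the 12 tested mitotic kinesin genes in each tumour, as a percentage of the VC mean of the gene (vertical axis), with 1 colour per gene. In miR-21-KD replicates 1, 3 and 4 the medians are 30.3%, 40.1% and 34.9%, in miR-21-KD replicate 2 the median is 78.0%, and VC replicate 4 (76.4%) lies below the other controls.

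The same tumours stood apart across the mitotic genes. MiR-21-KD replicate 2 was the highest of its group for all 12 genes, and VC replicate 4 was the lowest of its group for all 12, as the plot of the mitotic genes by tumour shows. The median mitotic gene stood at 105%, 109%, 107% and 76.4% of its VC mean in VC replicates 1 to 4 and at 30.3%, 78.0%, 40.1% and 34.9% in miR-21-KD replicates 1 to 4. Leaving out Kif2a and Kif2c, the other 10 genes lay between 20.8% and 42.7% in miR-21-KD replicates 1, 3 and 4 and between 65.9% and 87.4% in replicate 2. The spread between the miR-21-KD tumours was therefore shared by the genes of the class.

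Per length of exon, mitotic motors were among the most abundant kinesin transcripts of the VC tumours. In VC the highest means were those of Kif1c (25.2 CPM per kb), Kif3a (22.7), Kif20a (19.6), Kif22 (15.3), Kif5b (15.1) and Kif18b (14.7). In miR-21-KD they were Kif1c (29.0 CPM per kb), Kif5b (18.6), Kif3a (16.8) and Kif3b (15.8). Of the mitotic genes, Kif20a (8.33 CPM per kb), Kif22 (6.76) and Kif18b (5.47) had moved down to ranks 6, 9 and 11 in miR-21-KD, while Kif2a (9.16) had moved from rank 8 to rank 5 and Kif2c (7.59) from rank 10 to rank 7. The mitotic genes held 50.1%, 53.2%, 53.7% and 47.5% of the summed kinesin CPM per kb in the VC tumours and 25.6%, 43.8%, 30.0% and 28.8% in the miR-21-KD tumours. The shares did not overlap between the groups, and miR-21-KD replicate 2 was again the tumour nearest to the controls.

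The mitotic genes moved together, so their promoters were searched for letters known from genes that peak in G2 and mitosis. The cell cycle genes homology region (CHR) was read as TTTGAA or TTCGAA on either strand, and CCAAT was searched on both strands. TTCAAA below is TTTGAA read on the other strand. In the 300 bases from 250 before to 50 after the start of transcription, CHR letters were found in 9 of 12 mitotic genes. The counts were 1 of 11 transport genes and 3 of 8 other genes, each among genes with an entry in the RefSeq promoter table. These 12 include Kif2b, which had 0 counts, and leave out Kif20a, which fell but had no entry. Also without an entry were Kif5a, Kif13b and Kif21b, which rose, and Kif5b and Kif19a. A gene was counted where any of its entries matched, whereas the shares below are per promoter. For Kif14, Kif2c and Kif27 the entry lies inside the annotated gene. The share over all 32851 promoters of the table was 19.2%, and it was 14.1% over the 14032 promoters of tested genes. Both CHR letters and CCAAT were found in Kif11, Kif14, Kif18b, Kif22, Kif23 and Kif4, which is 6 of 12, and in 3 of 8 other genes (Kif24, Kif26b and Kif27) and none of 11 transport genes, against 7.52% of all promoters. Within 60 bases before to 40 after the start, CHR letters were found in Kif11, Kif15, Kif18b, Kif20b, Kif22, Kif23 and Kif4, which is 7 of 12, against 5.44% of all promoters. The E2F letters TTTGGCGC or TTTCGCGC, searched on both strands in the 300 bases, were found in Kif15 and Kif18a and in 0.813% of all promoters.

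The 100 bases around the start are shown for 4 mitotic genes that fell and, for contrast, for Kif5c, the transport gene with the largest rise, with the CHR letters in capitals (RefSeq, GRCm38.p6, each read 5′ to 3′ on the strand of its gene).
Kif11, chr19:37376322-37376421, plus strand: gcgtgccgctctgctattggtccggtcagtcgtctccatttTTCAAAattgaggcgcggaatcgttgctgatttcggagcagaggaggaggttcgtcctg
Kif22, chr7:127042381-127042480, minus strand: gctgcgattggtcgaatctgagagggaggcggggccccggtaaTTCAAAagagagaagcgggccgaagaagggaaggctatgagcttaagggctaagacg
Kif23, chr9:61946760-61946859, minus strand: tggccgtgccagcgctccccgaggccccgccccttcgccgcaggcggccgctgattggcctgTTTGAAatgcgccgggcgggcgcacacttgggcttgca
Kif20b, chr19:34922298-34922397, plus strand: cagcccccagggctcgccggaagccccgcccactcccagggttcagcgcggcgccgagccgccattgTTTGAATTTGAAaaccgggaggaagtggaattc
Kif5c, chr2:49619226-49619325, plus strand: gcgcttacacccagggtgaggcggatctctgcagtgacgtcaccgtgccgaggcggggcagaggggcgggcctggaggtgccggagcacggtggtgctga
Kif20b holds the letters a second time directly after the first, and Kif5c holds none in this window. A match of letters is not a bound site. Kif18a and Kif2a fell with no CHR letters in their 300 bases. Outside the mitotic class, Kif1a, which rose, Kif24, which fell, and Kif26b, which did not pass, held them within the 100 bases. For Kif1a they were found only at a start inside the gene, and the entry at the annotated beginning of the gene held none.

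**Figure D3:**
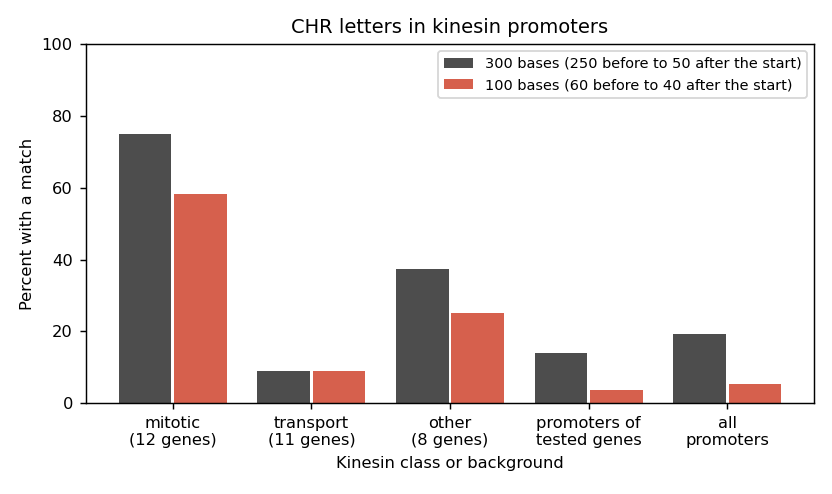
Percentage of genes or promoters with CHR letters (vertical axis) in 300 bases (dark bars) and 100 bases (red bars) around the start of transcription, for the kinesin classes, for the promoters of tested genes and for all promoters. The mitotic genes with a promoter entry, which include the untested Kif2b and not Kif20a, stand at 75% and 58.3%. All promoters stand at 19.2% and 5.44%.

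Transport kinesins moved in both directions. Of the 15 genes 14 were tested, and 6 rose (42.9%, against 19.6% of all tested genes), 2 fell (14.3%, against 19.5%) and 6 did not pass. The median log2 fold change was 0.25. In 6 genes every miR-21-KD tumour lay above every VC tumour (42.9%, against 16.3% of all tested genes), and in 2 (14.3%, against 18.9%) every one lay below. The number that rose was 6 without miR-21-KD replicate 2 and 4 without VC replicate 4, where 22.5% and 20.4% of all tested genes rose. It was 2 without VC replicate 2, 1 without VC replicate 3, 1 without miR-21-KD replicate 1 and 3 without miR-21-KD replicate 4. Over all tested genes 11.6%, 9.9%, 12.9% and 12.1% rose in those 4 settings, so the share of 1 in 14 transport genes lay below that of all genes.

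Kif5a and Kif5c, heavy chains of kinesin-1, rose from low levels. Kif5c was at 2.51, 1.99, 3.07 and 4.66 CPM in VC and at 6.47, 5.66, 8.20 and 6.65 CPM in miR-21-KD, which gave the largest rise of any kinesin (log2 fold change 1.14 ± 0.28, edgeR adjusted p = 0.0151). Kif5a was at 2.29, 1.76, 1.97 and 2.21 CPM in VC and at 4.53, 2.67, 3.0 and 4.15 CPM in miR-21-KD (0.80 ± 0.24, adjusted p = 0.0290). Both genes are best known from neurons, and neither overlapped between groups. Kif5b, the chain used by most cell types, was far more abundant at 121 ± 19.8 CPM (SD, n = 4) in VC and at 149 ± 12.8 CPM (SD, n = 4) in miR-21-KD. Kif5b did not pass (0.30 ± 0.13, adjusted p = 0.0845), except without VC replicate 1 (adjusted p = 0.0368) or with upper-quartile scaling (adjusted p = 0.0492). The call of Kif5c held whichever tumour was left out, and that of Kif5a was lost without VC replicate 2 or 3 or miR-21-KD replicate 1 or 4 (adjusted p up to 0.0821) and with no filter on low counts (0.0511).

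The kinesin-3 family carries vesicles and organelles, and its members Kif1a, Kif1b and Kif13b rose. Kif1a, a carrier of synaptic vesicle precursors, was at 7.30, 4.07, 5.75 and 9.24 CPM in VC and at 20.3, 11.1, 11.8 and 11.8 CPM in miR-21-KD (log2 fold change 1.06 ± 0.29, edgeR adjusted p = 0.0230). Kif1b, which moves mitochondria and vesicle precursors, was at 115, 114, 90.6 and 89.5 CPM in VC and at 144, 125, 127 and 132 CPM in miR-21-KD (0.37 ± 0.11, adjusted p = 0.0288). Neither gene overlapped between the groups, and the 20.3 CPM of Kif1a in miR-21-KD replicate 1 stood well above its other 3 tumours.

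Kif13b, which carries a membrane scaffold protein, was at 16.1, 14.8, 10.6 and 12.3 CPM in VC and at 30.2, 17.2, 22.2 and 17.9 CPM in miR-21-KD (log2 fold change 0.71 ± 0.21, edgeR adjusted p = 0.0304). Without miR-21-KD replicate 1, the highest tumour for Kif1a, Kif1b and Kif13b, none of the 3 passed. Other single tumours did the same, namely VC replicates 2 and 3 for Kif1a, VC replicates 3 and 4 and miR-21-KD replicates 3 and 4 for Kif1b, and VC replicates 2, 3 and 4 and miR-21-KD replicate 3 for Kif13b (adjusted p up to 0.0663, 0.0890 and 0.0851). The remaining members of the family in the transport class did not pass: Kif1c had groups without overlap, at 183 ± 13.2 and 211 ± 14.2 CPM (SD, n = 4 each, adjusted p = 0.0908), and Kif13a (-0.17) and Kif16b (0.07) had adjusted p-values of 0.207 and 0.657. The sign for Kif16b turned without VC replicate 4 or miR-21-KD replicate 1.

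Kif21b, which limits microtubule growth and is known from neurons and lymphocytes, was at 39.7, 29.3, 36.4 and 52.5 CPM in VC and at 81.1, 52.3, 60.1 and 68.1 CPM in miR-21-KD (log2 fold change 0.73 ± 0.19, edgeR adjusted p = 0.0205). It was the one transport gene past the threshold whose groups overlapped, since VC replicate 4 lay just above miR-21-KD replicate 2. Its call was lost without VC replicate 2 or 3 or miR-21-KD replicate 1 or 4 (adjusted p up to 0.0608). Its relative Kif21a had a log2 fold change of -0.42 ± 0.22 (adjusted p = 0.147), at means of 14.3 ± 3.99 CPM (SD, n = 4) in the controls and 10.7 ± 1.20 CPM in the knockdown, and passed without VC replicate 4 (adjusted p = 0.0208).

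**Figure D4:**
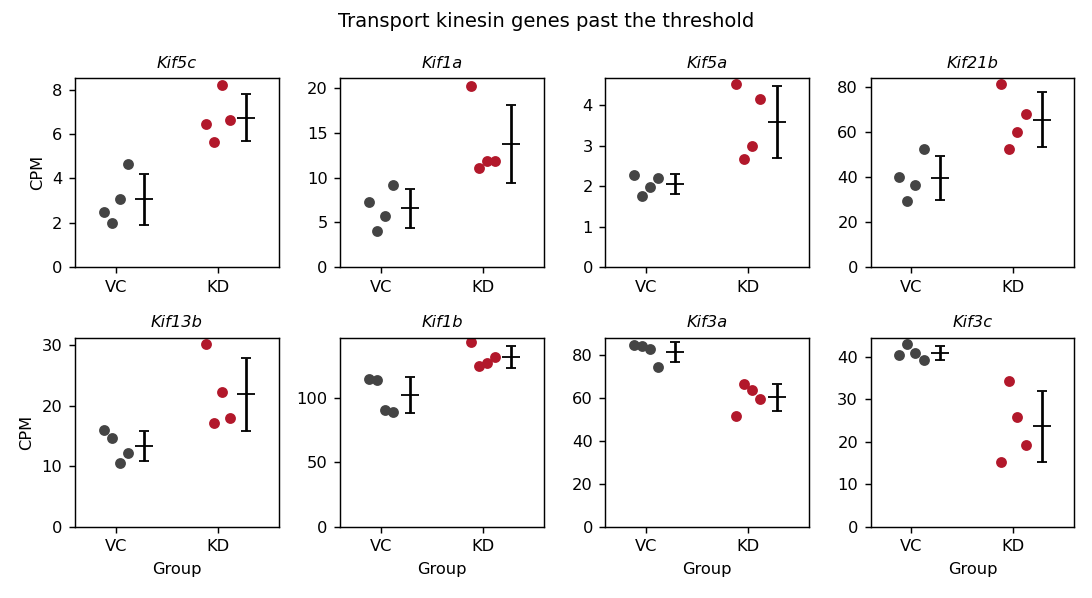
CPM of the 8 transport kinesin genes past an adjusted p of 0.05 in each VC (grey) and miR-21-KD (red) tumour, with the mean and SD of each group (n = 4) beside the points, on axes that start at 0. Kif5c, Kif1a, Kif5a, Kif21b, Kif13b and Kif1b are higher in miR-21-KD, with overlap in Kif21b alone, and Kif3a and Kif3c are lower.

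The kinesin-2 heavy chains, which pair with each other to move cargo within cilia and in the cytoplasm, included 2 genes that fell. Kif3a was at 84.5, 84.2, 82.8 and 74.6 CPM in VC and at 51.7, 66.4, 63.6 and 59.6 CPM in miR-21-KD (log2 fold change -0.43 ± 0.09, edgeR adjusted p = 0.0113). Kif3c was at 40.4, 43.0, 41.0 and 39.2 CPM in VC and at 15.3, 34.2, 25.8 and 19.2 CPM in miR-21-KD (-0.79 ± 0.22, adjusted p = 0.0242). Both fell without overlap, while Kif3b, at 78.0 ± 5.07 CPM in VC and at 89.0 ± 6.37 CPM in miR-21-KD (SD, n = 4), did not pass (0.19 ± 0.08, adjusted p = 0.0970). The ratio of Kif3a to Kif3b counts was 1.02, 1.04, 1.16 and 0.974 in VC and 0.539, 0.718, 0.743 and 0.727 in miR-21-KD. The call of Kif3a held whichever tumour was left out, and that of Kif3c was lost without VC replicate 2 or 3 or miR-21-KD replicate 4 (adjusted p up to 0.0689).

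Such ratios were taken for all 15 pairs of tested kinesins that share a number, which removes the scaling of the libraries, a comparison added after the values were seen. Besides Kif3a to Kif3b, the ratios of Kif3b to Kif3c, Kif13a to Kif13b and Kif18a to Kif18b did not overlap between the groups. For each of these 4 the exact two-sided permutation p was 0.0286, the smallest that 4 against 4 tumours can give, and none passed after adjustment over the 15 pairs (adjusted p = 0.107), which with this floor would have needed most of the 15 pairs to reach it, so the adjusted values say little. The ratio of Kif18a to Kif18b was 0.452, 0.347, 0.399 and 0.432 in VC and 0.477, 0.467, 0.539 and 0.580 in miR-21-KD.

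Most kinesins of other roles were low. Kif24, a relative of the Kif2 depolymerases which holds back cilium formation at the centriole of cycling cells, was at 6.42, 9.09, 9.06 and 5.89 CPM in VC and at 3.64, 5.66, 3.33 and 3.05 CPM in miR-21-KD (log2 fold change -0.96 ± 0.26, edgeR adjusted p = 0.0209). Kif9, known from motile cilia and sperm, was at 3.69, 4.31, 3.31 and 3.60 CPM in VC and at 6.95, 4.87, 5.44 and 5.48 CPM in miR-21-KD (0.61 ± 0.19, adjusted p = 0.0318). Neither overlapped between groups, but the call of Kif24 was lost without VC replicate 2 or 3 or miR-21-KD replicate 1, 3 or 4, and that of Kif9 without any tumour other than miR-21-KD replicate 2 (adjusted p up to 0.0630 and 0.0940), and Kif9 did not pass with no filter on low counts either (0.0616).

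The other 5 tested genes of this class did not pass: Kif27 (log2 fold change -0.94, edgeR adjusted p = 0.0638), Kif26b (0.60, 0.0735), Kif19a (0.79, 0.104), Kif26a (0.17, 0.649) and Kif7 (0.04, 0.876), the hedgehog regulator of the cilium tip. With the replicate number as a block, Kif19a passed (0.78, adjusted p = 0.0472), as it did without miR-21-KD replicate 2 (adjusted p = 0.0280). The block brought the genes of the class that rose from 1 to 2 where 23% of all tested genes rose. The sign for Kif7 turned without VC replicate 4 or miR-21-KD replicate 2 or 3. Kif6 (0 to 3 counts per tumour), Kif12 (0 or 1) and the transport gene Kif17 (1 to 6), known from dendrites, were too low to be tested.

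The genes that work with the mitotic kinesins, such as spindle proteins, kinetochore subunits and mitotic kinases, were lower in most cases. Of 47 listed partners of the mitotic kinesins 46 were tested, and 37 fell (19.5% over all tested genes), none rose by edgeR, DESeq2 or limma-voom and the median log2 fold change was -1.06. The 3 with the smallest adjusted p were Psrc1, which loads kinesins at the spindle (-0.95, edgeR adjusted p = 0.00635), Sgo1, which protects centromere cohesion (-1.52, 0.00734), and Aurkb, the kinase of the chromosomal passenger complex (-1.32, 0.00790). These partners summed to 4759, 4981, 5075 and 3584 CPM in VC and to 1495, 3624, 2024 and 1710 CPM in miR-21-KD, and as for the mitotic kinesins VC replicate 4 was the lowest control and miR-21-KD replicate 2 the highest of its group, here just above VC replicate 4. The list holds the motors Cenpe, Kifc1 and Kifc5b, whose symbols lie outside the rule and which are named after their values were seen, and these fell too (-1.22, -1.01 and -1.05, adjusted p of 0.0242, 0.0474 and 0.0247). The number that fell was 40 with the replicate block and 44 without miR-21-KD replicate 2 (22.1% and 24.3% over all tested genes). It was 18 to 21 without VC replicate 3 or miR-21-KD replicate 3 or 4 (10.2%, 12.2% and 11.1% over all tested genes).

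Of the 58 listed partners of the transport kinesins, which are adaptors, light chains, dynein and dynactin subunits, microtubule proteins and the motors Kifc2 and Kifc3, 53 were tested. Among these 8 fell and 7 rose (19.5% and 19.6% over all tested genes), and the median log2 fold change was 0.01. Those with the smallest adjusted p among the falls were Mapk8ip1, a scaffold that binds kinesin light chain (-1.23, edgeR adjusted p = 0.00501), Actr10, a dynactin subunit (-0.67, 0.00573), and Dynlrb1, a dynein light chain (-0.47, 0.00702). Among the rises they were Madd, a Kif1 adaptor (0.70, 0.00870), Hook1, a dynein adaptor (0.98, 0.0124), and Klc4, a kinesin light chain (0.68, 0.0184), whose call was lost without VC replicate 2 or 3 or miR-21-KD replicate 3 or 4 (adjusted p up to 0.0541). Kifap3, the shared accessory subunit of kinesin-2 and named here after its values were seen, also fell (-0.73, adjusted p = 0.00941), from 88.2 ± 10.9 CPM (SD, n = 4) in the controls to 53.1 ± 10.2 CPM in the knockdown. Kifc2 and Kifc3 did not pass (0.57 and -0.07, adjusted p of 0.166 and 0.721). The number of partners that rose was 2 to 4 without VC replicate 1, 2 or 3 or miR-21-KD replicate 3 or 4. In those settings 18.9%, 11.6%, 9.9%, 13.6% and 12.1% of all tested genes rose, a larger share than among the partners.

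Markers of several cell types moved with the groups, and their part in the kinesin values was not tested. Their counts stand against 19.6% higher and 19.5% lower over all tested genes. Of 8 markers of fibroblasts 6 were higher in miR-21-KD and none lower by edgeR, summing to 3072 to 8060 CPM in the controls and 10479 to 23412 CPM in the knockdown. Of 8 markers of macrophages and monocytes 6 were higher (2495 to 3726 against 5050 to 7912 CPM) and of 8 of T cells 5 (50.5 to 193 against 167 to 365 CPM, with overlap). Markers of endothelium did not move as a list, with 2 of 7 higher, a median log2 fold change of -0.01 and overlapping sums (373 to 662 against 561 to 810 CPM). Of 8 markers of mammary epithelium 6 were higher and 1, Krt18, lower (-1.15), and their sum, to which Krt8 and Krt18 gave most in the VC tumours but not in miR-21-KD replicates 1 and 4, was at 1291 to 2229 CPM in VC and at 1074 to 2006 CPM in miR-21-KD. With the replicate block 1 endothelial marker, Emcn, was lower, and 2 epithelial markers were, Krt8 being the second. MiR-21-KD replicate 2, the tumour with the most mitotic kinesin transcripts of its group, had the lowest sums of its group for fibroblast, macrophage and endothelial markers. VC replicate 4, the control with the least, had the lowest epithelial sum of its group (1291 CPM) and the highest T cell sum (193 CPM).

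Several transport kinesins that rose are best known from neurons, so neuronal and Schwann cell markers were read beside them. Of 8 such markers 6 were tested, 3 were higher and 1 lower by edgeR, and their summed level was at 33.3, 28.7, 23.6 and 24.7 CPM in VC and at 56.2, 21.1, 39.4 and 48.8 CPM in miR-21-KD. Of the neuronal genes in the list, Syn1 was higher (0.83, edgeR adjusted p = 0.0485), Snap25 had 0 counts in all 8 tumours and Rbfox3 was too low to be tested. The sums of the groups overlapped, and miR-21-KD replicate 2 had the lowest sum of all tumours. In every tumour but miR-21-KD replicate 2 the sum was mostly Map2, which was lower (-0.94, adjusted p = 0.0155), and Sox10, which was higher (2.08, 0.0364). Tubb3, a neuronal tubulin, was low at 0.737, 0.558, 0.867 and 1.55 CPM in VC and at 2.75, 2.59, 1.95 and 3.68 CPM in miR-21-KD, and it rose without overlap (1.56, adjusted p = 0.0126), as Kif5c and Kif1a did. The part of such cells in the transport kinesin values was not tested. Of 7 markers of ciliated cells 3 were tested and none passed, with sums of 4.57 to 6.70 CPM in the controls and 5.34 to 8.89 CPM in the knockdown.

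The strand setting of the read counting is not given in the sources used here. Reads in exons shared with a gene on the opposite strand may therefore have been added to a kinesin, left out or kept apart. Exons of Kif20a (1271 bases, with Cdc23), Kif2a (1229, Dimt1), Kif4 (832, Pdzd11), Kif22 (96, Gm31749), Kif18a (11, Mettl15) and Kif3c (2617, 1110002L01Rik, and 588, Gm48512) are shared in this way among the kinesins past the threshold.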

How the data were processed

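The table that the authors deposited holds raw counts by Entrez identifier for 8 whole tumours. The labels' processing notes name Subread, featureCounts, edgeR, limma and build mm10 without versions. Symbols matched 25275 of 27179 identifiers. Low genes were removed with filterByExpr of edgeR 4.0.16 in R 4.3.3 (minimum count 10, minimum total 15), which left out 12797. After TMM scaling, the groups were compared over the remaining 14382 genes by the quasi-likelihood F test (robust), with Benjamini-Hochberg adjustment at 0.05. All p-values measure the spread between these tumours. The script was tested on simulated data. Lengths, overlaps and 3′ UTRs came from GENCODE on GRCm38, promoters and the miRNA from RefSeq GRCm38.p6.

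The members, roles and lists were chosen with earlier results of these data known. Every gene that meets the symbol rule is accounted for, values per tumour are given for genes past the threshold or with a log2 fold change over 1 in size, and of each partner list the 3 genes of smallest adjusted p in each direction are named. Of the 58 transport partners, 57 had a row.

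Titles number the tumours 1 to 4 in both groups, and the study names no pairing. After removal of group means, same-numbered tumours correlated at 0.264, 0.413, 0.184 and 0.384. The mean over the 12 other combinations (-0.105) is no separate baseline, because removing the means ties it to these values with the opposite sign. The numbers were treated as pairs in a fit with a replicate block, which is given beside a kinesin whose call it changes. Replicates of a group differed by 12.6 to 70.7 times sampling noise (chi-square per degree of freedom). The alternatives were DESeq2 1.42.0, voom of limma 3.58.1, scaling by library size or upper quartile, no filter, at least 10 counts in every tumour, the replicate block, other role classes (Kif2a and the other class counted as transport), and each tumour left out.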

Additional observations from a re-analysis of the deposited data

Results flagged for a closer look

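In 9 of 66 groups of 4 tumours (33 genes in VC and in miR-21-KD, 13.6%) 1 tumour stood apart from the other 3 by more than Dixon's 95% critical value, which chance exceeds in about 5% of groups. In VC replicate 4 the low values were those of Kif11 (68.2 CPM), Kif15 (42.2 CPM), Kif4 (34.5 CPM), Kif2c (36.0 CPM) and Kif3a (74.6 CPM). In miR-21-KD replicate 2 the high values were those of Kif11 (67.3 CPM), Kif20b (29.6 CPM) and Kif4 (40.7 CPM). In miR-21-KD replicate 1 the high value was that of Kif1a (20.3 CPM). Of the 9 values, 7 thus concern mitotic genes in 2 tumours, and these genes move together, so they are not separate events.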

How the results depend on the processing

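The 11 mitotic genes that fell, against 10 with the other role classes, were 11 under every scaling, filter and test tried and with the replicate block, and 6 to 12 with a tumour left out. The median log2 fold change of the class stayed between -1.53 and -0.97 and that of the transport class between 0.19 and 0.32. Transport genes that rose were 1 to 7 with a tumour left out and those that fell 1 to 3, and 4 fell with the other role classes. In the other class 0 to 1 fell and 0 to 2 rose with a tumour left out, and 2 rose with DESeq2, 0 with no filter and 2 with the replicate block, which changed no call of a kinesin but that of Kif19a. With the block 40 mitotic partners and 9 transport partners fell and 7 T cell, 7 fibroblast and 4 neuronal or Schwann cell markers rose. Mitotic partners that fell were 18 to 44 with a tumour left out, transport partners that rose 2 to 8, and same-number pairs without overlap 4 to 8 (8 without VC replicate 4), a count that leaving a tumour out can keep or raise but not lower. With a tumour left out, the log2 fold change of Kif7 ranged from -0.035 to 0.10 and was below 0 without VC replicate 4 (-0.02), miR-21-KD replicate 2 or miR-21-KD replicate 3 (-0.0063), and that of Kif16b ranged from -0.0060 (without miR-21-KD replicate 1) to 0.13 and was also below 0 without VC replicate 4 (-0.00086). Over all tested genes 10.2% to 24.3% were lower and 9.9% to 23.9% higher across these settings. Kif1c passed with DESeq2, upper-quartile scaling and at least 10 counts, Kif26b with DESeq2, Kif3b with at least 10 counts and Kif5b with upper-quartile scaling. The cause of the lost calls was not tested.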
